A study of Mus musculus with 23 samples.

Results

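The circadian clock and output genes described here are Arntl, Per1, Per2, Per3, Cry2, Nr1d1, Nr1d2, Bhlhe40, Dbp and Nfil3, measured on Affymetrix arrays in hindlimb muscle of mice. The members are every probe set whose gene symbol in the platform's annotation table is exactly one of these names, which gave 15 probe sets of 10 genes, among 20380 probe sets with 1 symbol for 12393 genes in all. All 10 genes passed the filter on low signal and were tested among 9133 genes. Of these, 6 have a single probe set and 4 (Per2, Per3, Nr1d2 and Dbp) have several, and each gene is represented below by its brightest probe set.

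The samples came from female C57BL/6J mice labelled as 77 days old, with 1 array per sample and 23 arrays in 5 groups. In the flight experiment, gastrocnemius muscle was taken from mice after spaceflight of 11 days and 19 hours (n = 4) and from mice held over a matching period on Earth in an animal enclosure module that mimicked cabin conditions (ground AEM, n = 4). In the calf experiment, calf muscle was taken from mice suspended by the tail for 12 days and then set back on their feet for 3.5 hours (reloaded, n = 5), from mice suspended for 12 days and not reloaded (suspension, n = 5), and from untreated controls (n = 5). No group carries a transgene or a drug treatment in the labels. Titles, source names and the design text put each sample in its group. The longer description attached to each spaceflight sample speaks of ground AEM and the reverse, and if those were right the flight effects below would all change sign. Whether each sample is 1 animal is not stated, so the p-values cover the spread between samples, which may be technical. The sources used here give neither the hour of dissection nor the light schedule. For genes that cycle through the day, a group difference therefore cannot be told apart from a difference in dissection hour.

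The circadian clock is a feedback loop of transcription that runs in nearly every cell, muscle fibres included. The activators BMAL1 (encoded by Arntl) and CLOCK bind E-boxes and switch on the Per and Cry genes, whose proteins return to block them. A second loop runs through Nr1d1 and Nr1d2, which encode the repressors REV-ERB-alpha and REV-ERB-beta and hold Arntl down, so that Arntl peaks at the opposite time of day from Nr1d1, Dbp and Per3. Dbp is an activator and Nfil3 a repressor acting on the same D-box sequence, and both carry the rhythm to output genes. Per1 is also a direct target of the glucocorticoid receptor, and Bhlhe40 encodes a repressor that competes for E-boxes.

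To show the sequence around known types of clock element, the 250 bases upstream of the annotated start are printed for members with a window that holds one. These are Per1, Nr1d1 and Nfil3, which rose in flight, and Per3, which varied with Dbp. Cry2 also holds one and is not printed. The windows of Arntl, which also rose in flight, and of Dbp and Nr1d2 hold none of the motifs searched. Windows are from RefSeq on GRCm38.p6, 5′ to 3′ on the gene's strand. RefSeq windows matched 8 of the 10 members (not Per2 and Bhlhe40), with 10 windows among 32851. Capitals mark the motif found by searching both strands.
Per1, plus strand, chr11:69098699-69098948, E-box in capitals: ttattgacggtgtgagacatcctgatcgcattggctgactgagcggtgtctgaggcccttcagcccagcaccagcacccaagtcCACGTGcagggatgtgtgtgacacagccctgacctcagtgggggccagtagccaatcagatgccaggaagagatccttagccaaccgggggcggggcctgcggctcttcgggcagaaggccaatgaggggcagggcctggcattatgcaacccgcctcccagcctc
Nr1d1, minus strand, chr11:98775378-98775627, E-prime box in capitals: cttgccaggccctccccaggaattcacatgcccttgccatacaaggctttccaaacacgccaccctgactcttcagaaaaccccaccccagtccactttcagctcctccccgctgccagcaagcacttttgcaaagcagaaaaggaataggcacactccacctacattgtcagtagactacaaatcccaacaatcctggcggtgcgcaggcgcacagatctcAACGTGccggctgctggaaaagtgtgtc
Nfil3, minus strand, chr13:52981040-52981289, ROR/REV-ERB element in capitals: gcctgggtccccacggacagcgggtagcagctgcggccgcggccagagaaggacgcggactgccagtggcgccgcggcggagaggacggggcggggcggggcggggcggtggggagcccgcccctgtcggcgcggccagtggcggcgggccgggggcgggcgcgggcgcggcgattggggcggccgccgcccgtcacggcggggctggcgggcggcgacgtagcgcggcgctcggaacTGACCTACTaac
Per3, minus strand, chr4:151044666-151044915, 2 D-boxes in capitals: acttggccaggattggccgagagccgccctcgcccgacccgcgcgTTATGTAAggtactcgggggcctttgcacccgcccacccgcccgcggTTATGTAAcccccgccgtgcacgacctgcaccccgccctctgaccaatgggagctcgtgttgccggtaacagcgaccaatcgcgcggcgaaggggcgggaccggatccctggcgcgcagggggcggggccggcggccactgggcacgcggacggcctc

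The E-box, searched as CACGTG, stands in 6.02% of all windows of this length, and among the members in one of the 2 Per1 windows. The E-prime box, searched as CACGTT, stands in 3.85% of all windows, and among the members in Nr1d1 and Cry2. The D-box, searched as TTANNTAA, stands in 5.43% of all windows and among the members in Per3, which holds it 2 times. The ROR/REV-ERB element, searched as ANTNGGTCA, stands in 1.87% of all windows and among the members in Nfil3. The palindromic glucocorticoid response element stands in 0.387% of all windows and in 0 of the 10 member windows. The cyclic AMP response element, searched as TGACGTCA, stands in 1.55% of all windows and in 0 member windows. Its shorter core TGACG, which lies within it, stands in 17.8% of all windows and in 4 of the 10 member windows, those of Cry2, Nfil3 and Per1. These are matches of letters and say nothing of binding, and the motifs were chosen after expression values had been seen.

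The scale of the arrays differed between the experiments. Median log2 signal lay between 6.15 and 6.23 on the flight experiment's arrays and between 6.28 and 6.39 on the calf arrays. The interquartile range was 2.75 to 2.91 in the flight experiment against 2.21 to 2.46 in the calf experiment, so levels were not compared between experiments. Suspension replicate 8 stood apart, with a median correlation of 0.985 to its group where the other 22 arrays reached at least 0.989. The 9 muscle fibre markers averaged between 13.37 and 13.53 across the arrays, near the top of the scale, and 0 of them were called in any of the 4 comparisons of groups.

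**Figure D1:**
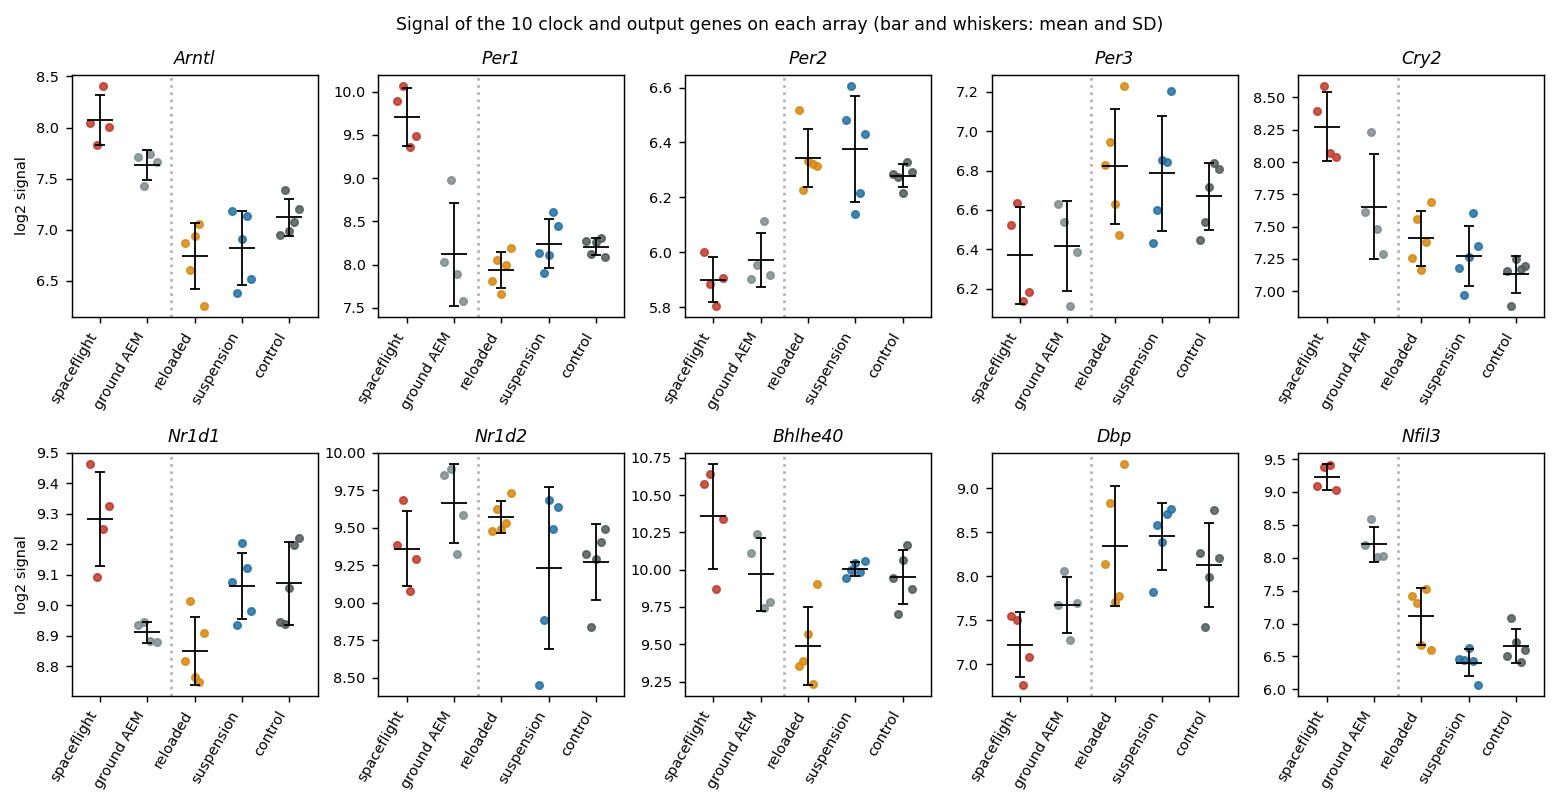
Log2 signal of each gene on every array, by group, with mean and SD; the dotted line divides the flight experiment (left) from the calf experiment (right), whose levels are not compared. Per1, Nfil3, Nr1d1 and Arntl have spaceflight points that lie above all ground AEM points, and Bhlhe40 has reloaded points below all suspension points.

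The first comparison asks how the clock genes of gastrocnemius differed after spaceflight. Per1 and Nfil3 were about 3.01-fold and 2.03-fold higher in spaceflight, Arntl and Nr1d1 were higher by smaller amounts, and no member was called lower. The test was limma's moderated test, adjusted over all 9133 genes, with a call at an adjusted p under 0.05. It called 4 of the 10 members, all higher, where 5.64% of all tested genes were called in either direction and 3.18% were called higher. The members' median log2 difference was 0.38, beside -0.01 over all tested genes, with 6 members positive and 4 negative. Fewer cells of a type and less RNA per cell cannot be told apart in these whole-muscle samples.

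Per1, the light- and hormone-inducible repressor of the loop, had log2 signals of 9.89, 10.07, 9.37 and 9.49 on spaceflight replicates 8, 9, 10 and 11, against 8.02, 8.97, 7.89 and 7.58 on ground AEM replicates 1 to 4. The groups did not overlap, and ground AEM replicate 2 stood well above the others of its group. The log2 difference was 1.59 ± 0.24 (SE; limma adjusted p = 0.00209). Leaving out single arrays gave values between 1.41 (without ground AEM replicate 4) and 1.87 (without ground AEM replicate 2), and Per1 kept its call in these 8 fits.

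Nfil3, the D-box repressor, had log2 signals of 9.09, 9.38, 9.41 and 9.02 on spaceflight replicates 8, 9, 10 and 11, against 8.19, 8.59, 8.01 and 8.03 on the ground AEM arrays. All spaceflight arrays lay above all ground AEM arrays. The log2 difference was 1.02 ± 0.13 (SE; limma adjusted p = 0.000596), and leaving out single arrays moved it only between 0.96 and 1.15.

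The loop's activator and its repressor rose by smaller amounts. Arntl had log2 signals of 8.04, 7.83, 8.41 and 8.01 in spaceflight, against 7.71, 7.42, 7.74 and 7.66 in ground AEM, and its difference was 0.44 ± 0.12 (limma adjusted p = 0.0448). This call lay close to the threshold: it was lost in 7 of 8 fits that left out 1 array, with values from 0.33 to 0.52, and it held only without spaceflight replicate 9 (0.52, adjusted p = 0.0276). Nr1d1 had log2 signals of 9.46, 9.09, 9.25 and 9.33 in spaceflight, against 8.94, 8.95, 8.88 and 8.88 in ground AEM. Its ground AEM values had an SD of only 0.03, and its difference was 0.37 ± 0.08 (limma adjusted p = 0.0227). The Nr1d1 call ended without ground AEM replicate 3 (0.36, adjusted p = 0.0657), ground AEM replicate 4 (0.36, adjusted p = 0.0589), spaceflight replicate 8 (0.31, adjusted p = 0.0691) or spaceflight replicate 11 (0.36, adjusted p = 0.0572).

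Cry2, the partner of the PER proteins in the repressor complex, did not pass in the flight comparison as fitted. Its log2 signals were 8.39, 8.59, 8.07 and 8.04 in spaceflight, against 7.61, 8.23, 7.48 and 7.29 in ground AEM, so that only ground AEM replicate 2 reached into the spaceflight range. The difference was 0.62 ± 0.18 (limma adjusted p = 0.0633), and without that array it was 0.81 (adjusted p = 0.00453). With all 23 arrays in the fit, and that array kept, the same difference of 0.62 passed as well (adjusted p = 0.0157). Bhlhe40 had log2 signals of 10.58, 10.64, 9.87 and 10.34 in spaceflight, against 10.11, 10.24, 9.74 and 9.78 in ground AEM, with overlap through spaceflight replicate 10. Its difference was 0.39 ± 0.16 (limma adjusted p = 0.199), and 0.55 without spaceflight replicate 10 (adjusted p = 0.0336).

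The D-box activator and the second REV-ERB had negative differences that did not pass. Dbp had log2 signals of 7.55, 7.50, 6.77 and 7.08 in spaceflight, against 7.67, 8.06, 7.27 and 7.69 in ground AEM (difference -0.45 ± 0.18, limma adjusted p = 0.182). Its other probe set differed by -0.52 ± 0.24 (adjusted p = 0.240 over all probe sets). Nr1d2 had log2 signals of 9.39, 9.69, 9.08 and 9.29 in spaceflight, against 9.85, 9.89, 9.33 and 9.59 in ground AEM (difference -0.30 ± 0.14, adjusted p = 0.254), with -0.56 ± 0.20 in its other probe set (adjusted p = 0.115). Both probe sets of each gene had the same sign, with groups that overlapped in each. Nr1d1 and Nr1d2, which encode related repressors, had differences of opposite sign.

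Per2 and Per3, the other Period genes, lay low on the scale. Per2 ranged from 5.80 to 6.00 in spaceflight, against 5.90 to 6.11 in ground AEM (difference -0.07 ± 0.08, 95% interval -0.24 to 0.10). Per3 ranged from 6.14 to 6.63 in spaceflight, against 6.11 to 6.63 in ground AEM (difference -0.05 ± 0.13, 95% interval -0.33 to 0.24). The filter stood at a log2 signal of 5.83, and the other probe set of Per2 (0.17) and the other 2 of Per3 (-0.18 and -0.24) did not pass it. The log2 difference of 1.59 for Per1 lies outside the intervals of Per2 and Per3, but Per1 lay higher on the scale and differences between genes were not tested.

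**Figure D2:**
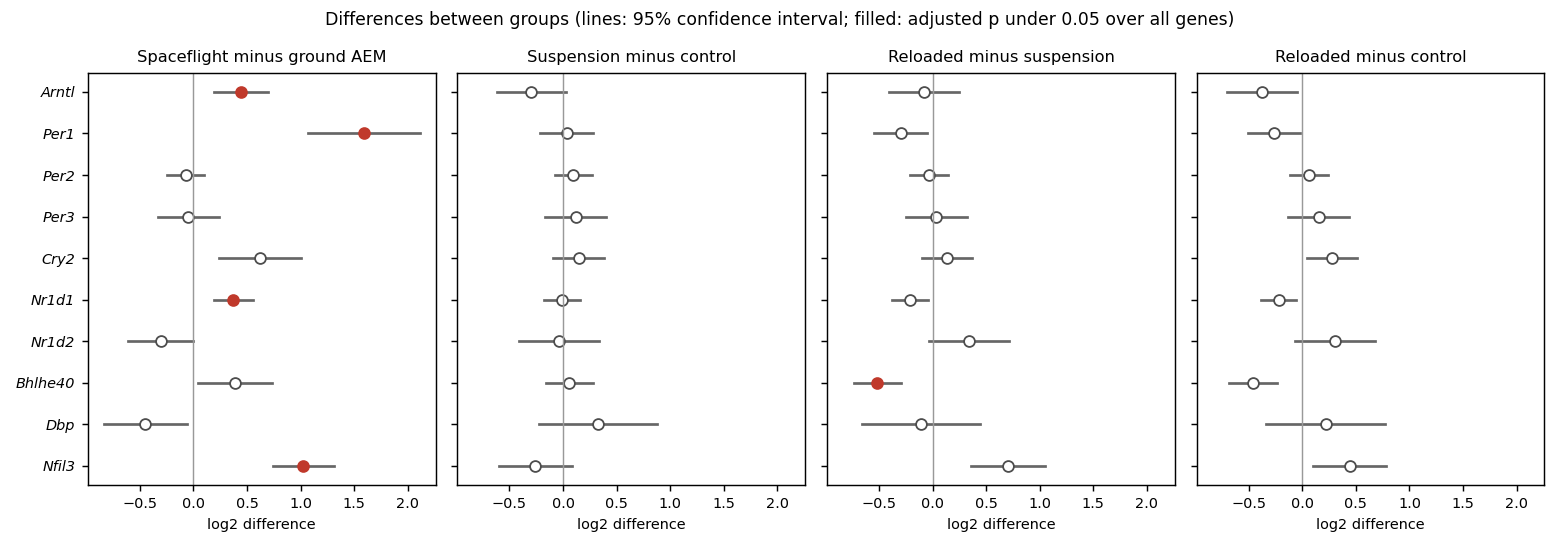
Log2 difference of each gene in the 4 comparisons (spaceflight minus ground AEM, suspension minus control, reloaded minus suspension, reloaded minus control), with 95% confidence intervals; filled points passed at an adjusted p under 0.05 over all tested genes. Per1 (1.59), Nfil3 (1.02), Arntl (0.44) and Nr1d1 (0.37) are filled for spaceflight, and Bhlhe40 (-0.52) is the 1 filled point among the calf comparisons.

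The second comparison asks how 12 days of unloading without flight affected the clock genes. It called 0 of the 10 members, where 0.372% of all tested genes were called. An unadjusted p under 0.05 in limma was found for 0 of the 10 members and for 790 of all 9133 tested genes. Under the alternatives of filter, probe set, scaling and fit the count of called members was 0 as well. Per1 had log2 signals of 8.14, 7.91, 8.11, 8.61 and 8.45 on suspension replicates 8, 9, 11, 25 and 30, against 8.27, 8.12, 8.26, 8.30 and 8.08 on control replicates 1, 2, 19, 21 and 22. The suspension arrays lay on both sides of the controls, and the difference was 0.03 ± 0.12 (95% interval -0.21 to 0.28). Its flight difference of 1.59 is above that interval. Arntl (-0.30 ± 0.16) and Dbp (0.32 ± 0.27) had the largest differences among the members, with limma adjusted p = 0.618 and 0.770.

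The third comparison asks what 3.5 hours of weight bearing after suspension changed. Bhlhe40 fell, and it was the 1 member called, where 0.58% of all tested genes were called and 0.0328% were called lower. Its log2 signals were 9.35, 9.39, 9.57, 9.24 and 9.90 on reloaded replicates 14, 15, 16, 18 and 33, against 9.95, 10.00, 10.04, 9.99 and 10.06 on suspension replicates 8, 9, 11, 25 and 30. All reloaded arrays lay below all suspension arrays, and reloaded replicate 33 came close to the lowest one. The mean was 9.49 ± 0.26 in reloaded muscle and 10.01 ± 0.05 in suspension muscle (SD, n = 5 each), and the log2 difference was -0.52 ± 0.11 (SE; limma adjusted p = 0.0183). The call ended without reloaded replicate 14 (-0.48), 15 (-0.49) or 18 (-0.45) and without suspension replicate 30 (-0.50), with adjusted p between 0.0553 and 0.0854. It also ended without suspension replicates 8 and 9 together (-0.54, adjusted p = 0.0654).

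Nfil3 had the largest difference of the members after reloading but did not pass. Its log2 signals were 7.42, 7.32, 6.68, 7.53 and 6.60 on reloaded replicates 14, 15, 16, 18 and 33, against 6.46, 6.44, 6.63, 6.43 and 6.07 on suspension replicates 8, 9, 11, 25 and 30. Reloaded replicates 14, 15 and 18 stood apart from all suspension arrays, while 16 and 33 lay close to suspension replicate 11. The difference was 0.70 ± 0.16 (SE; limma adjusted p = 0.0570). Nfil3 passed without reloaded replicate 33 (0.83, adjusted p = 0.00875), reloaded replicate 16 (0.81, adjusted p = 0.0170), suspension replicate 11 (0.76, adjusted p = 0.0401) or control replicate 2 (0.70, adjusted p = 0.0371). Per1 (-0.30 ± 0.12, adjusted p = 0.445) and Nr1d1 (-0.21 ± 0.08, adjusted p = 0.404) had unadjusted p of 0.0186 and 0.0146. Neither passed over all genes.

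Against never-suspended controls, reloaded muscle had 0 of 10 members called in limma, where 0.318% of all tested genes were called (0.0547% lower). An unadjusted p under 0.05 was found for 6 of the 10 members and for 664 of all 9133 tested genes. The 6 members were Bhlhe40 (-0.46 ± 0.11, adjusted p = 0.0730), Nr1d1 (-0.22), Nfil3 (0.44), Cry2 (0.28), Arntl (-0.38) and Per1 (-0.27). Bhlhe40 stood at 9.95, 9.70, 10.07, 10.17 and 9.87 on control replicates 1, 2, 19, 21 and 22, and only reloaded replicate 33 reached into that range. Bhlhe40 passed without reloaded replicate 33 (-0.56, adjusted p = 0.00358) or without control replicate 2 (-0.52, adjusted p = 0.0363). The calf comparisons share their arrays, so their values are not independent of each other.

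The remaining members had overlapping groups in calf muscle. Arntl spanned 6.25 to 7.06 in reloaded muscle and 6.38 to 7.18 in suspension muscle, against 6.95 to 7.38 in controls. Cry2 spanned 7.17 to 7.69 in reloaded muscle and 6.97 to 7.60 in suspension muscle, against 6.88 to 7.25 in controls. Both genes thus had their wider spread outside the controls. Dbp spanned 7.70 to 9.28 in reloaded muscle and 7.82 to 8.76 in suspension muscle, against 7.43 to 8.75 in controls. Nr1d2 lay between 9.48 and 9.73 in reloaded muscle and between 8.45 and 9.69 in suspension muscle, against 8.84 to 9.49 in controls. Its lowest values in suspension muscle were on replicates 8 (8.45) and 9 (8.88), and the other 3 suspension arrays reached 9.49 or more. Nr1d1 lay between 8.75 and 9.01 in reloaded muscle and between 8.93 and 9.21 in suspension muscle, against 8.94 to 9.22 in controls, so only reloaded replicate 15 reached into the other groups. Per3 had means of 6.82 ± 0.29 in reloaded, 6.79 ± 0.29 in suspension and 6.67 ± 0.17 in control muscle (SD, n = 5 each). Per2 had means of 6.34 ± 0.11, 6.38 ± 0.19 and 6.28 ± 0.04 in reloaded, suspension and control muscle. Neither Period gene had groups that stood apart.

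Whether the flight effect differed from that of unloading was then tested over all 23 arrays, with each effect taken within its own experiment. The muscle sampled and the scale of the arrays differed between the experiments, and their part in these differences was not tested. Per1 and Nfil3 had a larger flight than suspension effect, by 1.56 ± 0.27 (limma adjusted p = 0.00167) and 1.28 ± 0.24 (adjusted p = 0.00351), and 1.27% of all tested genes were called in that test (0.865% higher). Against the reloaded minus control effect, where 2.74% of all tested genes were called (1.61% higher and 1.13% lower), 4 members were higher in flight. These were Per1 (1.86 ± 0.27, adjusted p = 0.000124), Nr1d1 (0.59 ± 0.12, adjusted p = 0.00348), Bhlhe40 (0.85 ± 0.19, adjusted p = 0.0139) and Arntl (0.82 ± 0.22, adjusted p = 0.0410). The Arntl call ended in 13 of 23 fits that left out 1 array, with adjusted p up to 0.110. Nr1d1, Bhlhe40 and Per1 had positive differences in flight and negative ones after reloading, while Nfil3 was positive in both (difference of effects 0.58 ± 0.24, adjusted p = 0.251).

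Per1 was set beside genes that answer glucocorticoids, since it is one of their targets. Of 22 such genes (Per1 not counted), 15 rose and 0 fell in flight, where 3.18% of all tested genes were called higher and 2.46% lower. Their median log2 difference was 0.64, beside -0.01 over all tested genes. Among them Cebpd, a transcription factor, rose by 1.74, Fkbp5, a chaperone of the receptor, by 0.84, and Klf15, a regulator of amino acid breakdown, by 0.76. The others that rose were Mt2 (3.37), Ddit4 (2.82), Mt1 (2.25), Cdkn1a (1.43), Foxo1 (1.37), Errfi1 (0.96), Nfkbia (0.87), Angptl4 (0.70), Sgk1 (0.59), Foxo3 (0.55), Cebpb (0.53) and Klf9 (0.40). In the calf experiment 0 of the 22 were called in each of the 3 comparisons, with medians of 0.07 for suspension against control, -0.02 for reloaded against suspension and 0.06 for reloaded against control. The mean log2 signal of the list was 10.20, 10.27, 10.16 and 10.22 on spaceflight replicates 8, 9, 10 and 11, against 9.07, 9.69, 9.15 and 9.15 on ground AEM replicates 1 to 4. Ground AEM replicate 2 was the highest of its group both in the list and in Per1 (8.97). That array was also the highest for Cry2, Nfil3, Bhlhe40 and Dbp, and for the immediate-early and cyclic AMP genes given below. It was the highest by a narrow margin for Nr1d1 (8.95 against 8.94 on replicate 1) and Nr1d2 (9.89 against 9.85 on replicate 1). In the other probe set of Nr1d2 (7.01) and in Arntl (7.42) it was the lowest of its group. In calf muscle, suspension replicate 25 was the highest of its group in Per1 (8.61) and in the list (9.10). Reloaded replicate 33 had the highest Per1 of its group (8.19) and the lowest list mean (8.51). Control replicate 2 had the highest list mean of its group (8.84), with Per1 at 8.12. The list was chosen with earlier results of these data known, and its part in the Per1 difference was not tested. Tsc22d3 (0.26) and Zbtb16 (0.26), which are also strongly hormone-inducible in mouse muscle, did not pass.

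**Figure D3:**
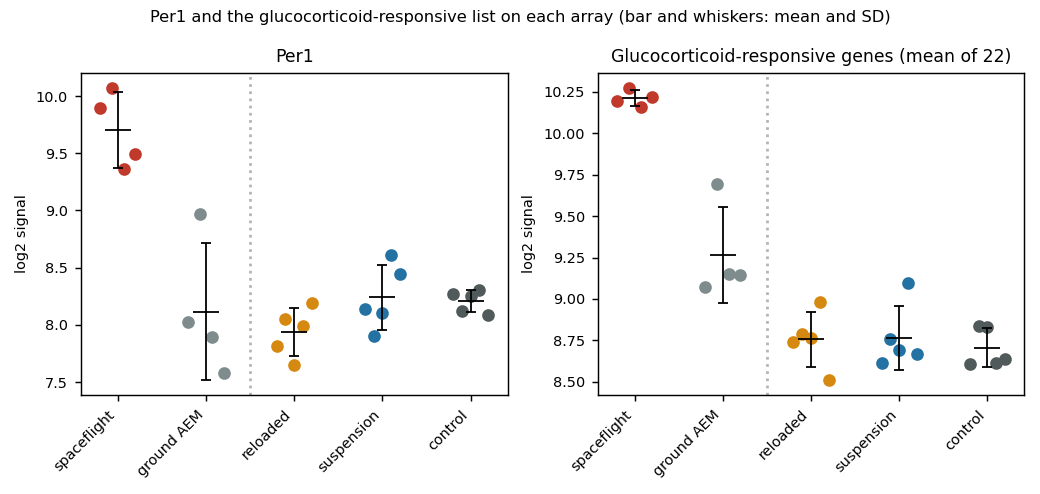
Log2 signal of Per1 (left) and mean log2 signal of the 22 glucocorticoid-responsive genes (right) on each array, with group mean and SD; the dotted line divides the 2 experiments. Within the flight experiment the spaceflight arrays lie above the ground AEM arrays in both panels (9.37 to 10.07 for Per1 and 10.16 to 10.27 for the list), and ground AEM replicate 2 is the uppermost of its group in both. That array is also the highest of its group for Cry2, Nfil3, Bhlhe40 and Dbp, and by a narrow margin for Nr1d1 and Nr1d2. It is the lowest of its group in the other probe set of Nr1d2. Suspension replicate 25 is the uppermost of its group in both panels, while reloaded replicate 33 is the uppermost for Per1 and the lowest for the list.

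Other clock genes had few calls, beside 3.18% of all tested genes called higher in flight and 2.46% called lower. Of 19 other clock and loop genes listed, 15 had a probe set, 13 were tested, and Cry1 and Bhlhe41 lay below the filter. In flight 0 of the 13 rose and 1 fell, Timeless (-0.49 ± 0.11, limma adjusted p = 0.0195), a partner of DNA replication whose place in the mammalian clock is debated. The list's median was 0.03. Clock, the partner of BMAL1, differed by 0.22 (adjusted p = 0.161) and Npas2, which can take its place, by -0.08. In each of the 3 calf comparisons 0 of the 13 were called. Of 9 tested output genes, Ucp3, a mitochondrial carrier of muscle, rose in flight (0.80 ± 0.17, adjusted p = 0.0137) and 0 fell. The D-box activators Tef (0.05) and Hlf (-0.12), relatives of Dbp, and the D-box target Usp2 (0.43, adjusted p = 0.0972) did not pass. In each calf comparison 0 of the 9 were called.

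Immediate-early and cyclic AMP genes are given because Per1 and Nfil3 can be induced like them. In flight 2 of 14 tested immediate-early genes rose, Zfp36 (1.58) and Jun (0.61), and 0 fell. Of all tested genes, 3.18% were called higher in flight and 2.46% lower. After reloading 5 of 14 rose against suspension, namely Atf3 (2.23), Fos (1.69), Jun (1.17), Egr1 (1.06) and Jund (0.42), and against control Atf3 (2.02) and Jun (1.02) rose. The share of all tested genes called higher was 0.547% against suspension and 0.263% against control. The cyclic AMP target Sik1 rose in both, by 0.91 in flight and by 0.36 after reloading, whereas the coactivator Ppargc1a fell by 1.23 on the log2 scale in flight and rose by 1.29 after reloading. Hypoxia targets, a class to which Bhlhe40 belongs, had 0 of 9 higher and 1 lower in flight, Vegfa (-0.59), 1 lower in suspension, Egln3 (-0.45), and 0 called after reloading. In suspension 0.241% of all tested genes were called lower.

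Markers of other cells moved in some comparisons, where the shares of all tested genes called were those given above. Adipocyte markers had 4 of 5 tested genes higher in flight, Cidec (1.67), Adipoq (1.44), Retn (1.05) and Lep (0.62), where 3.18% of all tested genes were called higher. The mean log2 signal of the list was 8.34 to 8.73 on spaceflight arrays against 7.37 to 7.62 on ground AEM arrays. In suspension muscle the list's mean was 8.02 to 8.43 against 7.38 to 8.00 in controls, with 0 of 5 called. Plin1 and Cfd had no probe set with that symbol. Macrophage and skin markers had 0 called genes in all 4 comparisons of groups, and endothelial markers had 1 of 5 lower in flight, Kdr (-0.32). Of 2 tested Schwann cell markers Mbp was higher in suspension (1.87), and of 6 slow fibre markers Myl3 was lower in suspension (-0.47) and Myl2 in flight (-0.42). Thbs4, a tendon marker, rose after reloading (0.47), and the erythroid marker Alas2 was lower in flight (-0.28). The part of these cells in the clock gene differences was not tested.

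Genes with the pattern most like a member were found by the root mean square difference in log2 signal over the 23 arrays, after each experiment's mean was taken off. For Per1, whose own values had a root mean square of 0.56, they were Zfp36 (0.21), Sox4 (0.25) and Plin4 (0.28). For Nfil3 (own value 0.46) they were Midn (0.26), Sik1 (0.27) and Ifrd1 (0.29). Midn and Sik1 rose in flight, by 0.61 and 0.91, and also after reloading, by 0.60 and 0.36. For Arntl (own value 0.30) they were Rhou (0.21), Pnpla2 (0.23) and Tacc2 (0.23), and for Dbp (own value 0.46) they were Gamt (0.34), Rpl22l1 (0.34) and Aimp2 (0.34). These distances came nearest to the member's own value for Arntl (0.21 to 0.23 against 0.30) and Dbp (0.34 against 0.46), though they stayed below it. These 3 genes per member are the nearest of the tested genes outside the members.

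Within groups, several clock genes differed between samples together with Dbp or against it. Reloaded replicate 33 had the highest Dbp of the calf arrays (9.28) and the lowest Arntl (6.25). Control replicate 2 had the lowest Dbp (7.43) and the highest Arntl (7.38). Taking each array as its deviation from its group mean, Dbp and Arntl deviated in opposite directions on 12 of 15 calf arrays and 6 of 8 gastrocnemius arrays. Reloaded replicate 33 deviated by 0.93 in Dbp, 0.41 in Per3, 0.28 in Cry2 and 0.41 in Bhlhe40, and by -0.49 in Arntl and -0.51 in Nfil3. Control replicate 2 deviated the other way, by -0.70 in Dbp, -0.43 in Nr1d2 and -0.25 in Cry2, and by 0.26 in Arntl and 0.42 in Nfil3.

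The other 9 members were each related to Dbp in each experiment, 18 relations in all, with two-sided permutation tests that shuffled arrays only within their group. These relations were chosen after the values had been seen. In calf muscle (15 arrays) Arntl ran against Dbp, with Pearson r = -0.72 (permutation p = 0.0032, adjusted 0.0195) and Spearman rho = -0.68 (p = 0.0081, adjusted 0.0366). Without reloaded replicate 33 and control replicate 2, the arrays farthest from the median of Dbp, r was -0.59. Of all other tested genes, 0.208% had an r with Dbp at least as low. Per3 ran with Dbp (r = 0.77, permutation p = 0.0018, adjusted 0.0195; rho = 0.73, adjusted 0.0366), as did Nr1d2 (r = 0.58, adjusted 0.0195; rho = 0.64, adjusted 0.0366) and Cry2 (r = 0.67, adjusted 0.0438; rho = 0.71, adjusted 0.0366). Without those 2 arrays these r were 0.72 for Per3, 0.53 for Nr1d2 and 0.51 for Cry2. An r at least as high was found in 0.307% of all other tested genes for Per3, 1.65% for Cry2 and 5.48% for Nr1d2, so the value of Nr1d2 was not rare. The other 5 members did not pass for Pearson's r. These were Bhlhe40 (r = 0.67, adjusted 0.0595; 0.38 without those 2 arrays), Per1 (0.57, adjusted 0.0595), Nr1d1 (0.50, adjusted 0.111), Nfil3 (-0.51, adjusted 0.170; -0.21 without them) and Per2 (-0.12, adjusted 0.726). By Spearman's rho Per1 passed (0.66, adjusted 0.0400) and the other 4 of these did not.

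In gastrocnemius (8 arrays) the same test is exact, over 576 arrangements. Arntl again had a negative r with Dbp (-0.83, exact permutation p = 0.0226, adjusted 0.0580; rho = -0.76, adjusted 0.116), and Per3 (0.86), Nr1d2 (0.85), Cry2 (0.76), Per1 (0.75) and Bhlhe40 (0.90) had positive ones. Of these, Bhlhe40 passed the adjustment for Pearson's r (exact permutation p = 0.0069, adjusted 0.0312), and none of the 6 passed for Spearman's rho. Nfil3 (0.34, of opposite sign to calf muscle), Nr1d1 (0.16) and Per2 (0.04) did not pass either. Without spaceflight replicate 10 and ground AEM replicate 3, the farthest arrays, r was -0.62 for Arntl and 0.75 for Bhlhe40. In calf muscle without suspension replicates 8 and 9, r with Dbp was -0.76 for Arntl, 0.79 for Per3 and 0.67 for Nr1d2. In the flight comparison Dbp had a negative difference (-0.45), while Per1 (1.59), Cry2 (0.62) and Bhlhe40 (0.39) had positive ones. Their r with Dbp within groups was positive in both experiments, though not each of these passed the adjustment. Nr1d2 (-0.30) and Per3 (-0.05), whose r was also positive in both, had negative flight differences like Dbp. Arntl (0.44), whose r was negative in both, had a positive one. Nr1d1 (0.37) also had a positive flight difference, and its r was positive in both experiments (0.50 in calf muscle and 0.16 in gastrocnemius), though neither r passed. Nfil3 (1.02) and Per2 (-0.07) had an r of opposite sign in the 2 experiments. Of these flight differences, only those of Per1, Nfil3, Arntl and Nr1d1 were called. How they relate to the pattern within groups was not tested.

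**Figure D4:**
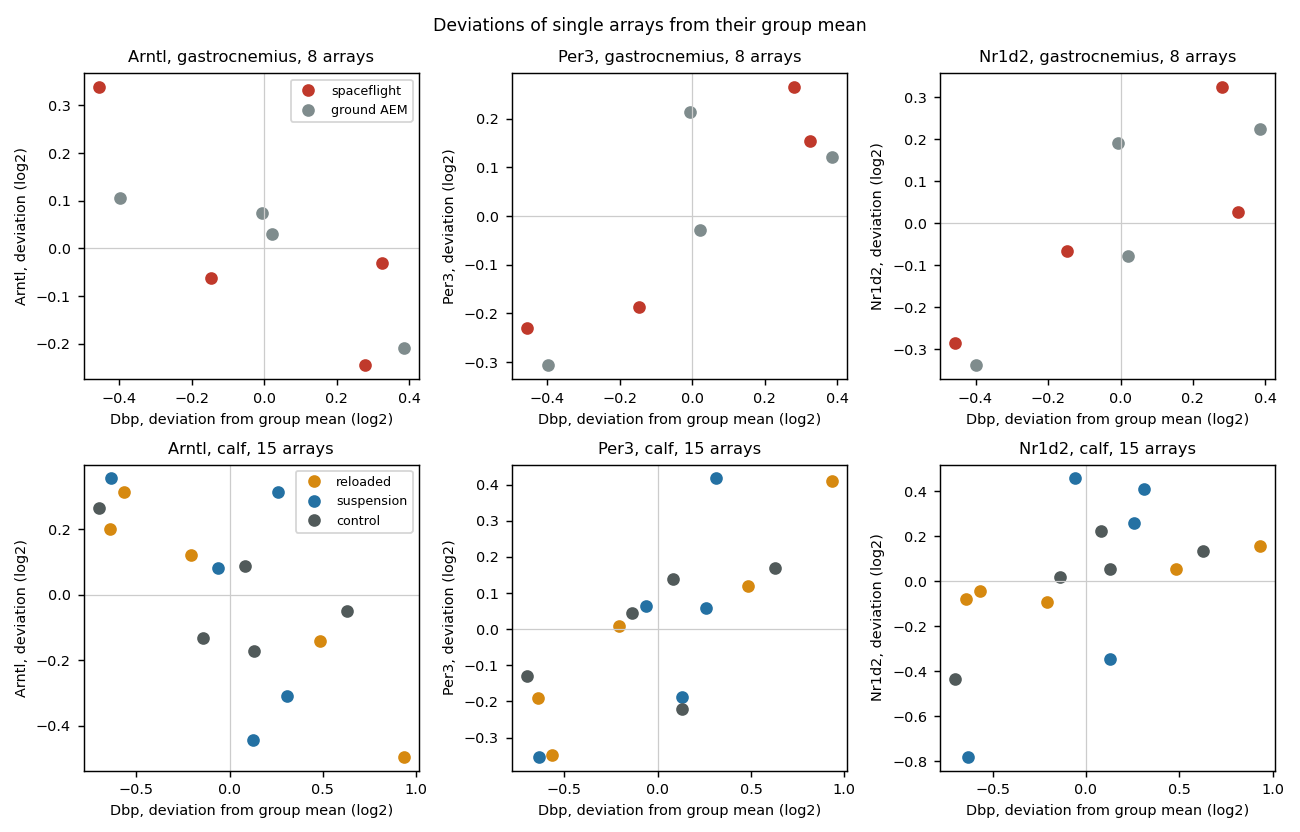
Deviation of each array from its group mean (log2) for Arntl, Per3 and Nr1d2 against that for Dbp, with gastrocnemius arrays above and calf arrays below. Arntl has a negative r with Dbp (-0.83 in gastrocnemius, -0.72 in calf), and Per3 (0.86 and 0.77) and Nr1d2 (0.85 and 0.58) have positive ones. In gastrocnemius none of these passed the adjustment. In calf muscle an r at least as high as that of Nr1d2 was found in 5.48% of all other tested genes.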

How the data were processed

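The deposited values are log2 signals, one per probe set and array, between 2.49 and 14.2. RMA and MAS5 are named in the submitters' processing notes, but the sources used here do not say which made the deposited log2 table, nor if the 23 arrays were processed jointly. No further normalization was added. Of 22690 probe sets, 64 controls were left out, and of the others 20380 have 1 gene symbol, 691 several and 1555 none in the platform's annotation. For each of 12393 genes the brightest probe set (by mean over arrays) was kept, and tested where the log2 signal was above 5.83 (the 40th percentile) on at least 4 arrays. This left out 3260 genes.

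Groups were compared with limma 3.58.1 in R 4.3.3 (lmFit, eBayes, two-sided), with Benjamini-Hochberg adjustment over 9133 genes. Gastrocnemius arrays (8) had their own fit, the 15 calf arrays shared 1 spread, and differences of effects used all 23 arrays. The code was checked on simulated data. The median standard error was 0.09 in each comparison of groups, and the number of arrays limits precision. No batch was tested, since no scan date was given. The text names all members with every probe set, called genes and up to 4 others of the lists, and for 4 members the 3 nearest genes. Members and lists were chosen with earlier results of these data known. Within-group relations used 100000 resamples in calf muscle. Alternatives were 2 other filters, each probe set or their mean, quantile normalization, median centring, another eBayes, array weights, other sets of arrays and leaving out arrays.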

Additional observations from a re-analysis of the deposited data

Results flagged for a closer look

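Among 50 combinations of a member and a group, 1 had a single array that lay apart: Cry2 on control replicate 2, at a log2 signal of 6.88 with the next control at 7.15. Chance flags about 1 in 20 such groups. The same array had the lowest Dbp and the highest Arntl of the calf controls.

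The effect of flight differed from that of suspension for Per1 (difference of effects 1.56, limma adjusted p = 0.00167, with effects of 1.59 in flight and 0.03 in suspension) and for Nfil3 (1.28, adjusted p = 0.00351, with effects of 1.02 and -0.26). It differed from that of suspension followed by reloading, each against its own control, for Per1 (1.86, with 1.59 and -0.27), Bhlhe40 (0.85, with 0.39 and -0.46), Arntl (0.82, with 0.44 and -0.38) and Nr1d1 (0.59, with 0.37 and -0.22). The muscle sampled, the housing, the experiment and the scale of the arrays differ between flight and calf groups, and their parts cannot be told apart.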

How the results depend on the processing

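No paired analysis was possible because the groups compared share no replicate numbers in the labels. Of 10 members, 4 were called in flight under the reported settings, and 2 to 4 with single arrays left out. Per1 and Nfil3 kept their direction and call in flight under all alternatives run, save the exchange of labels given last. Per1 came close to the threshold with trend and robust eBayes (limma adjusted p = 0.0437). After reloading 1 member was called, against 2 with quantile normalization, with median centring or with array weights (Nfil3 besides Bhlhe40), 0 without suspension replicates 8 and 9, and 0 to 2 with single arrays left out. Against controls, reloaded muscle had 0 members called, and 1 with trend and robust eBayes or with array weights (Bhlhe40), and 0 to 1 with single arrays left out. Arntl in flight also lost its call without the filter (adjusted p = 0.0559), with quantile normalization (0.0511) and with all arrays in the fit (0.123). Of the 2 differences of effects, flight minus suspension called 2 members in all settings, though not the same 2 with labels exchanged, and flight minus reloaded 3 to 4. If the flight labels were exchanged, as the descriptions have it, flight minus suspension would be -1.62 for Per1 and -0.76 for Nfil3, and flight minus reloaded -1.32 for Per1, -0.15 for Nr1d1 and -0.063 for Arntl, with 0.072 for Bhlhe40. Nfil3 would then lose its call in flight minus suspension (adjusted p = 0.0557), as would Arntl, Nr1d1 and Bhlhe40 in flight minus reloaded. Cry2 would gain one in both (-0.76, adjusted p = 0.0306, and -0.90, adjusted p = 0.0131) and Nfil3 in flight minus reloaded (-1.47, adjusted p = 0.000419). Cry2 passed in flight with all arrays in the fit (adjusted p = 0.0157). Arntl in flight minus reloaded lost its call without the filter, with quantile normalization, with median centring and with trend and robust eBayes (adjusted p = 0.0502 to 0.0589). The cause of these changes was not tested. Per2 and the dimmer Per3 probe sets lie close to or below the filter, which limits what can be read from them.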
